A study of Caenorhabditis elegans with 30 samples.

Results

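The comparison rests on 4 Pol II ChIP-seq libraries, of 30 samples in the series and 10 with Pol II, and sets silencing that needs the Argonaute HRDE-1 against silencing that needs 3 histone methyltransferases. They were chosen by genotype and antibody: hrde-1 (tm1200; written tm-1200 in the sample labels) on gfp RNAi and on oma-1 RNAi, and a triple mutant that carries set-32(ok1457) together with met-2(n4256) and set-25(ok5021), written met-2 set-25;set-32 below, on the same 2 foods. All were synchronized Caenorhabditis elegans young adults grown at 19 °C after about 3 generations of feeding, and the antibody was raised against RNA polymerase II (Pol II) whose C-terminal repeat is phosphorylated at serine 2, the form found on elongating polymerase. Each strain was thus sampled by 2 libraries, 1 per food, and no separate cultures of one strain on one food were given. The p-values of windows below measure the spread left after strain and food are fitted, pooled over all 10 Pol II libraries. No p-value below rests on replicate cultures of one strain on one food. The alleles are carried in every cell, and the chromatin came from whole animals, in which fewer germ cells and less Pol II per germ cell cannot be told apart.

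In the germline of this worm, small RNAs bound to HRDE-1 enter the nucleus and silence matching genes and retrotransposons during transcription. The methyltransferases SET-32, MET-2 and SET-25 contribute to trimethylation of histone H3 at lysine 9 (H3K9me3), the mark of heterochromatin that accompanies this silencing. The table of 1-kb windows of the ce6 genome carries 2 lists from the same group of authors: GRTS windows, where germline nuclear RNAi silences transcription, and GRH windows, where it is needed for heterochromatin. Both lists had been drawn up from nuclear RNAi mutants, hrde-1 included. In hrde-1, a higher Pol II level at GRTS windows or lower H3K9me3 at GRH windows is therefore not independent evidence of its direction. What the lists did not fix is the level of Pol II in met-2 set-25;set-32.

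Values are RPKM, which for a 1-kb window equals its reads scaled to library depth. The Pol II libraries held 3817000 to 6782000 aligned reads, and the window of median coverage held 13.0 to 35.3 reads in them. Of 100270 windows, 506 were marked by the authors as misannotated, and 99742 of the rest were tested. The hrde-1 libraries carry the library name prefix SG0315, as do those of WT and met-2 set-25, whereas those of met-2 set-25;set-32 and set-32 carry SG1115. The prefix and the genotype cannot be told apart in the comparison of hrde-1 with met-2 set-25;set-32, so the WT, set-32 and met-2 set-25 values are given beside the main results. The median window had 5.27 (gfp RNAi) and 3.40 (oma-1 RNAi) RPKM in hrde-1, against 6.13 and 5.16 RPKM in met-2 set-25;set-32. The hrde-1 oma-1 RNAi library was the most spread of the 10, with a 95th percentile 11.02 times its median, while the other 9 ran from 4.07 to 10.2 times.

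With limma on log2(RPKM + 1) over all 10 Pol II libraries, with strain and food as terms, 1286 windows were higher in hrde-1 than in met-2 set-25;set-32 and 2334 were lower, where a call needs a difference of 2-fold or more and a p, adjusted by Benjamini-Hochberg over all tested windows, below 0.05. These calls are 1.29% and 2.34% of the windows tested. The median log2 difference over all windows was −0.26, so a typical window was slightly lower in hrde-1. The offset and the counts move with the scaling. With the libraries brought to equal medians, which sets the all-window median near 0 (0.07) by construction, 4113 windows were called higher and 892 lower, so that the share of calls that were higher was 82.2% in place of 35.5%. With equal medians over windows low in H3K9me3 instead, the all-window median was −0.35, and 913 windows were called higher and 3176 lower, a share of 22.3%. The source of the offset was not tested. The counts over all windows are therefore given with their scaling, and a difference in a class of windows is read against the all-window median.

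**Figure D1:**
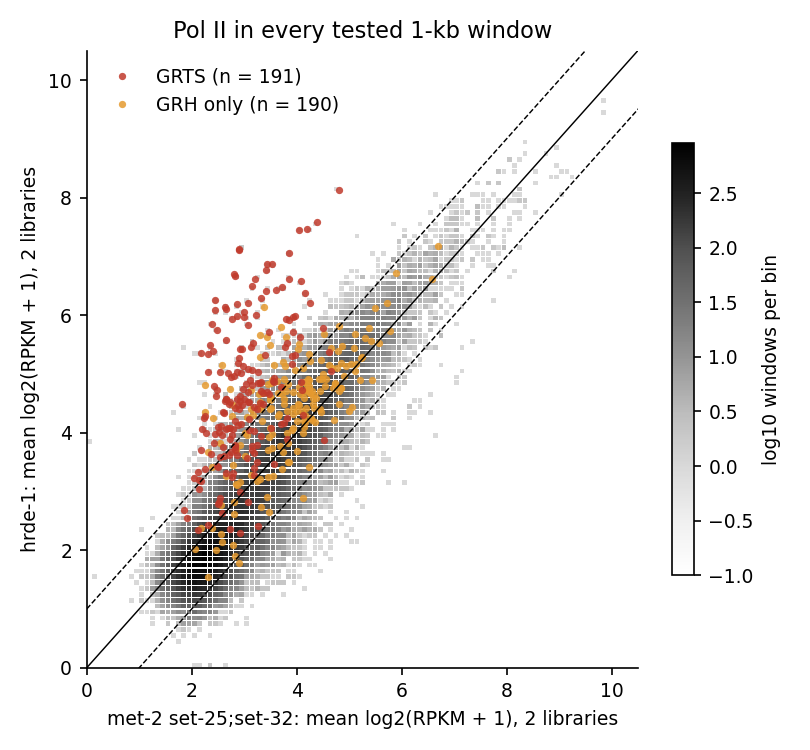
Mean log2(RPKM + 1) of the 2 hrde-1 libraries (vertical axis) against that of the 2 met-2 set-25;set-32 libraries (horizontal axis) for every tested 1-kb window, as a density of bins in grey, with the 191 GRTS windows in red and the 190 GRH-only windows in orange. The solid line marks equal values and the dashed lines a 2-fold difference; most GRTS windows stand above the upper dashed line and no GRTS window lies below the lower one.

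GRTS windows were the class in which hrde-1 and met-2 set-25;set-32 parted. Pol II rose in hrde-1 at 136 of the 191 GRTS windows (71.2%, against 1.29% of all windows), and no GRTS window was called lower. The median GRTS window had 25.4 (gfp RNAi) and 23.1 (oma-1 RNAi) RPKM in hrde-1, against 7.49 and 5.96 RPKM in met-2 set-25;set-32. Both hrde-1 medians thus stood above 3 times either median of the triple mutant. Window by window, the median ratio of hrde-1 to met-2 set-25;set-32 was 3.28 on gfp RNAi and 3.35 on oma-1 RNAi. The median log2 difference was 1.55 (quartiles 0.98 and 2.33), against −0.26 over all windows. In 169 GRTS windows (88.5%) both hrde-1 libraries lay above both met-2 set-25;set-32 libraries, a pattern held by 12.2% of all windows.

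The other strains place these levels. The median GRTS window had 5.11 (gfp RNAi) and 4.12 (oma-1 RNAi) RPKM in WT, 6.29 and 3.96 RPKM in met-2 set-25, and 5.63 and 5.22 RPKM in set-32. The triple mutant was thus within a few RPKM of the strains that keep HRDE-1, and only hrde-1 stood apart. In the same fit, hrde-1 was called higher than WT at 160 GRTS windows (83.8%, against 0.464% of all windows) and met-2 set-25;set-32 was called higher than WT at 21 (10.99%, against 1.85% of all windows). These 2 comparisons share the WT libraries. The median log2 difference from WT was 1.97 in hrde-1 and 0.47 in met-2 set-25;set-32 at GRTS windows, where the all-window medians were −0.0007 and 0.27. On the log2 scale, the mean WT level was nearer to that of met-2 set-25;set-32 than to that of hrde-1 in 184 of the 191 GRTS windows (96.3%), compared with 30.0% of all windows.

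**Figure D2:**
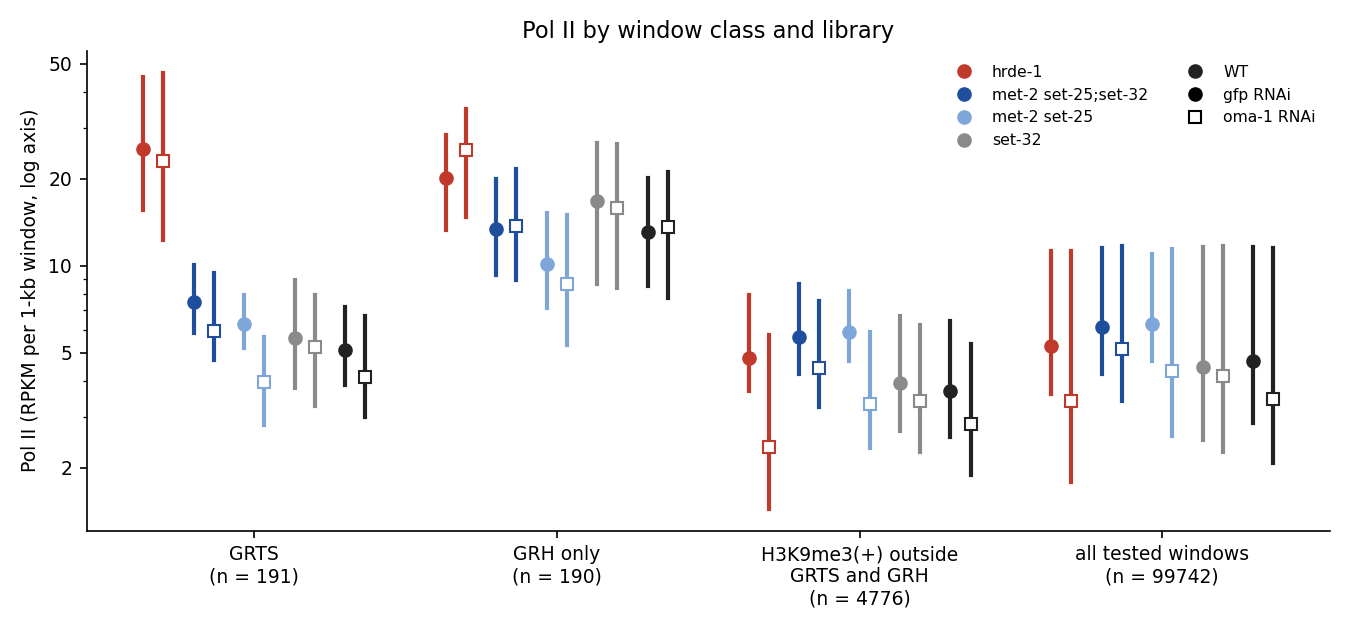
Pol II RPKM per 1-kb window (log axis) in 4 window classes, for each of the 10 Pol II libraries; the point is the median over windows (filled circle, gfp RNAi; open square, oma-1 RNAi) and the bar spans the quartiles. At GRTS windows both hrde-1 libraries (medians 25.4 and 23.1) stand clear of the 8 others (medians 3.96 to 7.49), while over all windows the hrde-1 medians are 5.27 and 3.40, the second of them the lowest of the 10 libraries.

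H3K9me3 at the same windows ran in another order. The median GRTS window had 18.8 (gfp RNAi), 18.8 (oma-1 RNAi) and 19.1 (OP50) RPKM of H3K9me3 in hrde-1, against 12.04, 12.33 and 12.26 RPKM in met-2 set-25;set-32, and 25.3, 36.9 and 47.9 RPKM in WT. The strain with the higher Pol II at GRTS windows, hrde-1, thus kept more H3K9me3 there than the triple mutant. At the 136 called windows taken alone the medians were 17.8 to 18.4 RPKM in hrde-1 and 12.3 to 12.7 RPKM in met-2 set-25;set-32. No input or between-sample correction was applied to these H3K9me3 values.

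The 191 GRTS windows form 80 loci when windows with gaps of at most 1 kb are joined, 44 of them a single window. Of the 80 loci, 54 held at least 1 window that rose in hrde-1, and in 41 every window rose. The mean log2 difference was above 0 in 78 loci. Longer loci differed more: the share of windows called was 54.5% in loci of 1 window, 61.1% in loci of 2, 85.2% in loci of 3 to 4 and 79.8% in loci of 5 or more windows. In the last of these classes the median window had 34.24 (gfp RNAi) and 32.02 (oma-1 RNAi) RPKM in hrde-1, against 7.48 and 6.01 RPKM in met-2 set-25;set-32, and in single-window loci it had 20.4 and 15.2 RPKM in hrde-1, against 7.67 and 5.995 RPKM in met-2 set-25;set-32. By chromosome, the called windows numbered 18 of 27 on I, 24 of 31 on II, 4 of 10 on III, 22 of 39 on IV and 68 of 84 on V. Chromosome X carries no GRTS window.

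The difference reached past the GRTS windows. In the first window outside a GRTS locus the median log2 difference was 0.48 on the left and 0.49 on the right, with 22 of 79 and 19 of 80 windows called. Flanking windows on the GRH list were not left out, so these values are not those of unmarked windows alone. At 2 kb it was 0.17 and 0.32, and at 5 kb it was 0.03 and −0.02, nearer to the all-window median of −0.26. At 10 kb it was −0.18 on the left and −0.31 on the right. Left and right refer to the coordinate and not to the direction of transcription.

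The 10 GRTS windows with the largest difference had log2 differences of 3.43 to 4.21. The top pair, at 8830 to 8831 kb and 8872 to 8873 kb of chromosome V, read nearly alike in every library. The first had 143.9 (gfp RNAi) and 132.4 (oma-1 RNAi) RPKM in hrde-1, against 7.26 and 5.82 RPKM in met-2 set-25;set-32. That is a ratio of 19.8 on gfp RNAi (95% exact binomial interval 14.2 to 28.6) and 22.8 on oma-1 RNAi (16.6 to 32.7), and the log2 difference was 4.21 ± 0.26 (SE, limma adjusted p = 1.34e-10). These intervals cover counting error only. The next pair, at 8873 and 8831 kb, are the neighbours of the first, and all 4 belong to 2 stretches described below that cannot be read as separate signals. Outside them the largest difference was at 5754 to 5755 kb of chromosome V, a GRTS window with no other within 1 kb of it. It had 56.1 and 101.0 RPKM in hrde-1, against 6.33 and 3.02 RPKM in met-2 set-25;set-32, and its ratio was 8.87 on gfp RNAi (6.16 to 13.5) and 33.5 on oma-1 RNAi (21.9 to 56.8). The intervals of the 2 foods do not overlap at this window, although hrde-1 was far above on both.

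The remaining 5 of the 10 lie at 2150 and 2154 kb of chromosome II, 5192 and 17571 kb of chromosome V and 4459 kb of chromosome I. Their hrde-1 values ran from 40.3 to 142.4 RPKM, against 3.10 to 10.1 RPKM in met-2 set-25;set-32. These windows were picked by that difference in the same libraries, so the lack of overlap between the 2 strains follows from the choice. The window at 4459 kb of chromosome I is also marked GRH. The 25 windows on both lists were called higher in 23 cases, with a median log2 difference of 2.30, and the 166 on the GRTS list alone in 113 cases, with a median of 1.48.

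The 55 GRTS windows that were not called had log2 differences of −0.86 to 1.21, with a median of 0.55, and 49 of them were above 0. Of the 55, 5 reached 2-fold without passing the test. Their median was 12.1 (gfp RNAi) and 8.83 (oma-1 RNAi) RPKM in hrde-1, against 7.29 and 5.56 RPKM in met-2 set-25;set-32, and 4.18 and 3.00 RPKM in WT. Among the 26 loci with no call, 2 long ones are described here, chosen after their values were seen. At 915 to 922 kb of chromosome IV, 7 adjoining GRTS windows averaged 10.3 and 7.97 RPKM in hrde-1, against 7.95 and 6.27 RPKM in met-2 set-25;set-32 and 4.41 and 2.92 RPKM in WT. At 2516 to 2521 kb of chromosome II, 5 windows averaged 21.35 and 13.95 RPKM in hrde-1, against 13.59 and 12.01 RPKM in met-2 set-25;set-32 and 6.17 and 5.47 RPKM in WT. In both, met-2 set-25;set-32 lay above WT, so the small difference between the mutants came with a level above WT in each of them. The 3 GRTS windows with the lowest differences, also chosen after their values were seen, lay at 12646 and 16102 kb of chromosome V and 11300 kb of chromosome I and had −0.86, −0.65 and −0.62 on the log2 scale and adjusted p-values of 0.15, 0.25 and 0.32.

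Called windows were joined into regions with gaps of at most 1 kb. The 1286 higher windows made 936 regions, 780 of them a single window, and 47 held at least 3 called windows. All 47 were higher on both foods. Of the 47, 26 held a GRTS window and 4 more a GRH window, and 17 held neither. Of the 1106 called windows on neither list, 11.3% lay within 5 kb of a GRTS or GRH window, compared with 1.35% of all unmarked windows tested.

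Of the 15 regions with the largest mean rise, 14 held GRTS windows. The first, 8 windows at 4456 to 4464 kb of chromosome I with 6 GRTS and 7 GRH windows, averaged 99.7 (gfp RNAi) and 110.8 (oma-1 RNAi) RPKM in hrde-1, against 11.9 and 12.9 RPKM in met-2 set-25;set-32. WT had 10.8 and 14.4 RPKM there, so the triple mutant and WT overlapped. The second, 10 windows at 4123 to 4133 kb of chromosome IV with 8 GRTS windows, averaged 93.9 and 102.4 RPKM in hrde-1, against 13.5 and 11.9 RPKM in met-2 set-25;set-32. WT had 6.30 and 6.24 RPKM, below both libraries of the triple mutant. The third, 13 windows at 2150 to 2163 kb of chromosome II with 9 GRTS windows, averaged 40.9 and 40.7 RPKM in hrde-1, against 6.73 and 5.20 RPKM in met-2 set-25;set-32. In each of the 3, the smaller of the 2 ratios, 8.40, 6.95 and 6.07, was the one on gfp RNAi.

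**Figure D3:**
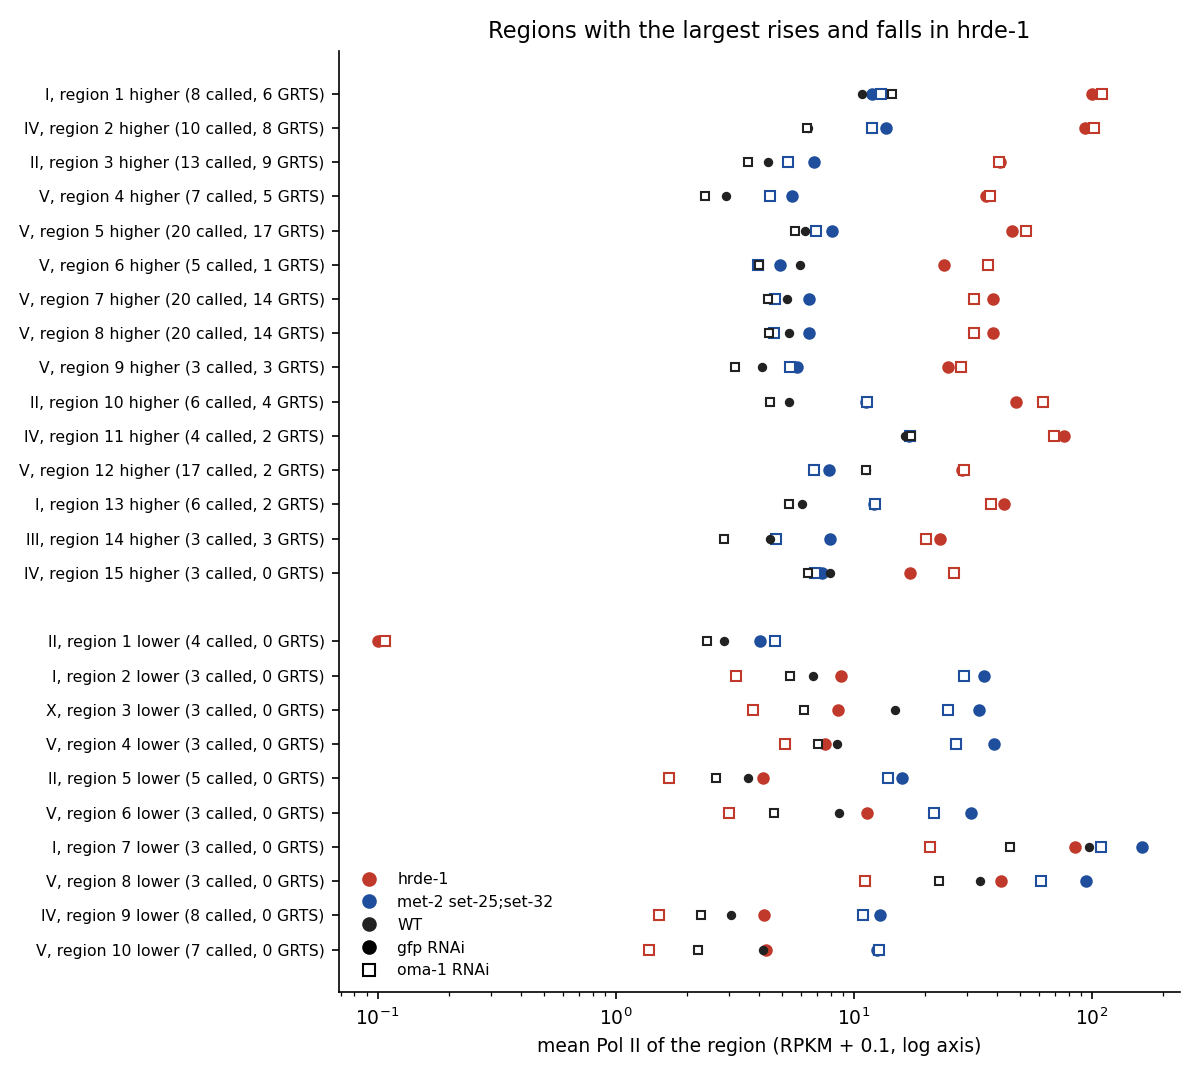
Mean Pol II of each region (RPKM + 0.1, log axis) in hrde-1 (red), met-2 set-25;set-32 (blue) and WT (black), with gfp RNAi as filled circles and oma-1 RNAi as open squares, for the 15 regions with the largest rise and the 10 with the largest fall. In the 15 higher regions the hrde-1 points lie at 17.2 to 110.8 RPKM and the points of both other strains at 2.28 to 17.3 RPKM; in most of the 10 lower regions hrde-1 lies near WT, and the triple mutant stands to the right.

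The locus of cer8, an LTR retrotransposon, was the longest GRTS stretch. Its 19 windows at 5182 to 5201 kb of chromosome V, 18 of them GRTS, averaged 49.6 (gfp RNAi) and 55.8 (oma-1 RNAi) RPKM in hrde-1, against 7.93 and 6.60 RPKM in met-2 set-25;set-32. Of the 19 windows 18 rose, and the ratio was 6.26 and 8.46. WT had 5.94 and 5.47 RPKM, met-2 set-25 had 7.37 and 4.89 RPKM, and set-32 had 5.99 and 6.21 RPKM, so the 8 other libraries lay between 4.89 and 7.93 RPKM. H3K9me3 at cer8 was 29.7 to 35.2 RPKM in hrde-1, against 12.9 to 13.7 RPKM in met-2 set-25;set-32 and 28.7 to 51.3 RPKM in WT. The hrde-1 libraries lay above those of the triple mutant in both Pol II and H3K9me3 at this locus.

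A pair of stretches of chromosome V, 8827 to 8847 kb and 8869 to 8889 kb, each of 20 called windows, gave nearly equal means in each of the 4 libraries. They had 38.36 (gfp RNAi) and 31.95 (oma-1 RNAi) RPKM in hrde-1 for the first, against 6.39 and 4.53 RPKM in met-2 set-25;set-32. For the second, the means were 38.38 and 32.03 RPKM in hrde-1, and the oma-1 RNAi mean was 4.55 RPKM in met-2 set-25;set-32. A read that aligns to several places was shared equally among them by the authors, so near-identical copies receive like values whichever copy the reads came from. The pair is read as 1 signal of uncertain place. Each stretch holds 14 GRTS windows, all called, and the counts of GRTS windows, loci and regions in this report include both stretches. No count without one of them was made.

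A locus on the GRH list that the study drew as an example, 5465 to 5485 kb of chromosome V, holds 7 GRH windows and 1 GRTS window. Its 20 windows averaged 24.8 (gfp RNAi) and 25.2 (oma-1 RNAi) RPKM in hrde-1, against 7.66 and 6.58 RPKM in met-2 set-25;set-32, and 16 of them rose. WT had 10.4 and 10.6 RPKM, above both libraries of the triple mutant and below both of hrde-1. H3K9me3 there was 9.64 to 11.3 RPKM in hrde-1, against 11.3 to 12.3 RPKM in met-2 set-25;set-32 and 18.5 to 31.1 RPKM in WT.

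**Figure D4:**
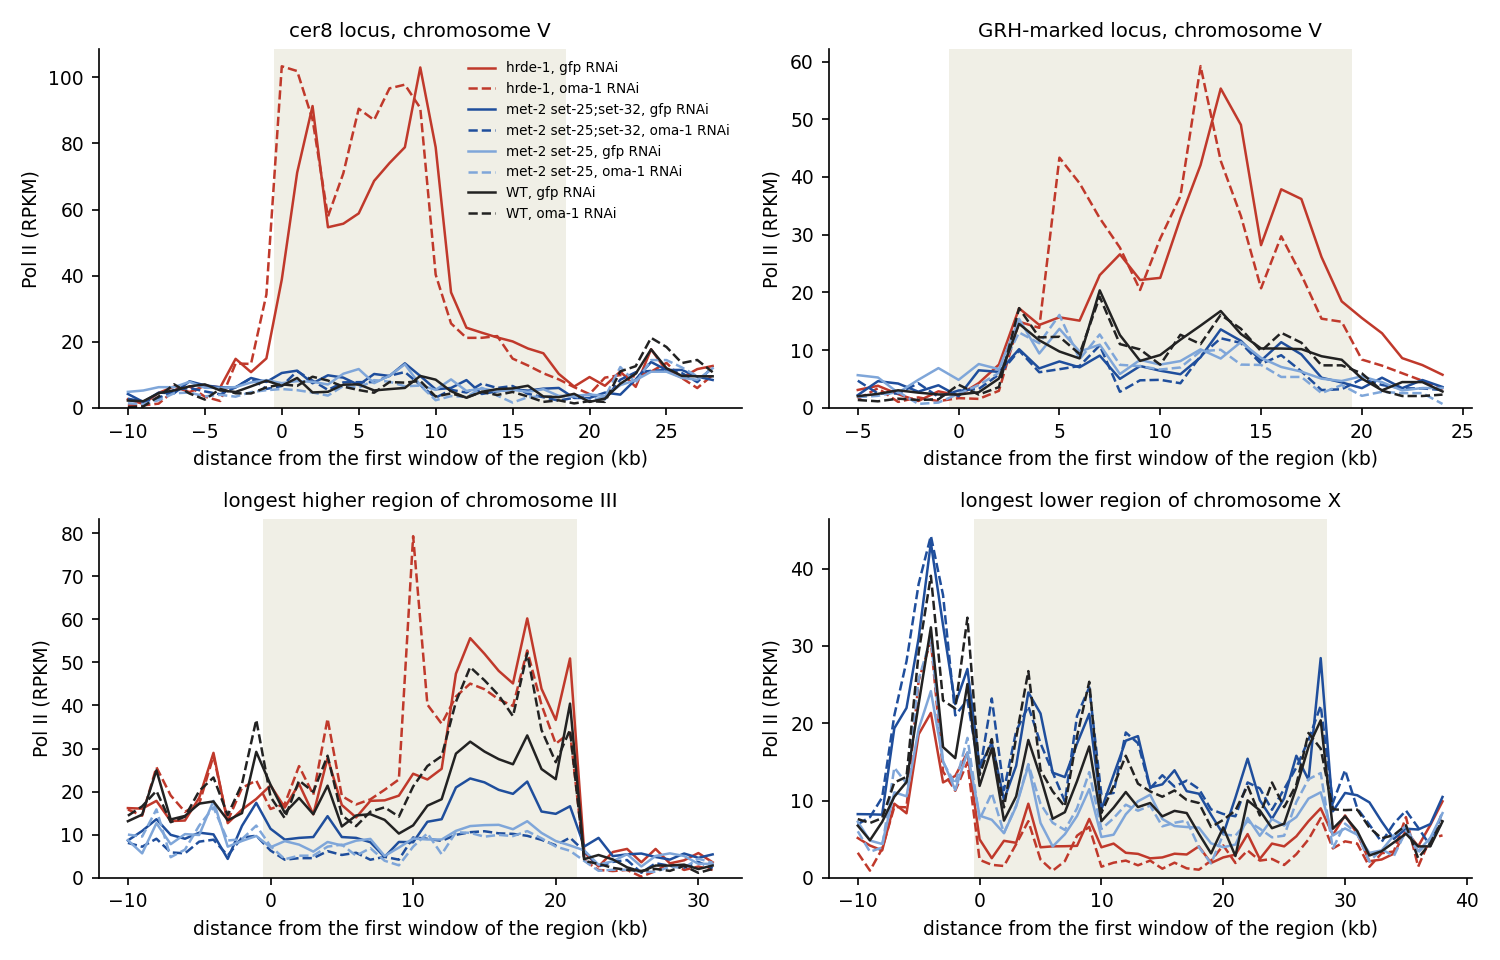
Pol II RPKM in 1-kb windows across 4 regions (shaded), against distance from the first window of each region in kb, for hrde-1 (red), met-2 set-25;set-32 (dark blue), met-2 set-25 (light blue) and WT (black), with gfp RNAi solid and oma-1 RNAi dashed. At cer8 hrde-1 alone rises (means 49.6 and 55.8 RPKM); in the chromosome III region the means of hrde-1 (31.8 and 33.5) and WT (21.3 and 27.9) lie above those of both met-2 set-25 strains; in the chromosome X region hrde-1 is the lowest.

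The 190 GRH windows that are not GRTS windows differed less. Pol II rose in hrde-1 at 44 of them (23.2%, against 1.29% of all windows) and fell at 1, and the median log2 difference was 0.44, against −0.26 over all windows. The median window had 20.09 (gfp RNAi) and 25.02 (oma-1 RNAi) RPKM in hrde-1, against 13.4 and 13.7 RPKM in met-2 set-25;set-32, and 13.0 and 13.6 RPKM in WT. The triple mutant was within 0.4 RPKM of WT in these medians. Both hrde-1 libraries lay above both of the triple mutant in 106 (55.8%, against 12.2% of all windows) and below both in 19. The 5 GRH-only windows with the largest difference, at 4457 kb of chromosome I, 5473, 5476 and 5477 kb of chromosome V and 13246 kb of chromosome II, had log2 differences of 2.19 to 2.76. The first lies in the leading region of chromosome I, and the 3 of chromosome V in the GRH locus above. At the 44 GRH-only windows that rose, H3K9me3 medians were 5.52 to 6.51 RPKM in hrde-1, against 9.43 to 9.71 RPKM in met-2 set-25;set-32. They were 18.8 to 35.4 RPKM in WT. Thus hrde-1 had the lower RPKM of the 2 mutants there, unlike at GRTS windows. The triple mutant values were near its all-window H3K9me3 medians of 9.64 to 9.69 RPKM, whereas those medians were 7.64 to 8.49 RPKM in hrde-1. The paper states that scaling to depth alone artificially raises the H3K9me3 background of methyltransferase mutants. The order is therefore not read as more H3K9me3 kept in the triple mutant. The GRH list was itself drawn up from heterochromatin in nuclear RNAi mutants, so low H3K9me3 in hrde-1 at these windows is not independent evidence.

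Windows rich in H3K9me3 outside both lists had calls in both directions. Of 4776 tested windows in the top 5% of WT H3K9me3 on OP50, 89 (1.86%, against 1.29% of all windows) rose in hrde-1 and 190 (3.98%, against 2.34%) fell, and the median log2 difference was −0.38, against −0.26 over all windows. With the libraries scaled to equal medians the balance turned, to 215 higher and 68 lower. The median window had 4.79 (gfp RNAi) and 2.36 (oma-1 RNAi) RPKM in hrde-1, against 5.64 and 4.42 RPKM in met-2 set-25;set-32, and 3.67 and 2.84 RPKM in WT. The hrde-1 oma-1 RNAi library was the lowest of the 6. Their H3K9me3 medians were 23.3 to 26.9 RPKM in hrde-1, against 12.5 to 13.0 RPKM in met-2 set-25;set-32.

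Windows called higher outside the lists had medians above the all-window median in every strain. The 1106 such windows had medians of 21.6 (gfp RNAi) and 38.5 (oma-1 RNAi) RPKM in hrde-1, against 9.47 and 13.99 RPKM in met-2 set-25;set-32, and 17.5 and 22.6 RPKM in WT. The WT level was the nearer to met-2 set-25;set-32 in 410 of them (37.1%), near the 30.0% of all windows. In hrde-1, 112 of the 1106 (10.1%, against 0.464% of all windows) were also called higher than WT. The 1106 windows were chosen by their level in these same hrde-1 and triple mutant libraries, so both shares are descriptions. Their H3K9me3 medians were low in every strain, at 3.14 to 4.25 RPKM in hrde-1, against 4.83 to 6.66 RPKM in met-2 set-25;set-32.

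The longest higher region also lay outside the lists, but its mean H3K9me3 was higher, at 16.8 to 17.3 RPKM in hrde-1. At 6554 to 6576 kb of chromosome III, 21 of 22 windows rose, with no GRTS or GRH window among them and 9 in the top 5% of WT H3K9me3. Its mean Pol II was 31.8 (gfp RNAi) and 33.5 (oma-1 RNAi) RPKM in hrde-1, against 13.8 and 7.48 RPKM in met-2 set-25;set-32. WT had 21.3 and 27.9 RPKM and set-32 had 30.8 and 28.6 RPKM, while met-2 set-25 had 9.10 and 7.39 RPKM. Pol II here was therefore low in the 2 strains that carry met-2(n4256) and set-25(ok5021) and higher in the 3 that do not. The ratio of hrde-1 to the triple mutant was 2.31 on gfp RNAi and 4.48 on oma-1 RNAi. Of the 15 regions with the largest rise, the one with no GRTS window, 4 windows at 11191 to 11195 kb of chromosome IV, had 17.2 and 26.4 RPKM in hrde-1, against 7.26 and 6.78 RPKM in met-2 set-25;set-32 and 7.86 and 6.32 RPKM in WT, and 3 of its windows were in the top 5% of WT H3K9me3.

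The 2334 windows lower in hrde-1 made 1567 regions, of which 138 held at least 3 called windows and none held a GRTS or GRH window. Their medians were 5.03 (gfp RNAi) and 2.58 (oma-1 RNAi) RPKM in hrde-1, against 12.1 and 9.91 RPKM in met-2 set-25;set-32, and 5.50 and 4.03 RPKM in WT. In 395 (16.9%) the WT level was nearer to the triple mutant, compared with 30.0% of all windows. In the same fit met-2 set-25;set-32 was called higher than WT at 897 of the 2334 (38.4%, against 1.85% of all windows). These windows were chosen by their level in the triple mutant and hrde-1, so both shares are descriptions.

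In most of the 10 regions with the largest fall, hrde-1 lay near WT and the triple mutant above both. In some of them met-2 set-25 was near the triple mutant, and in others it was nearer to WT. Examples of both are given here, chosen after their values were seen. At 9734 to 9737 kb of chromosome V, means were 7.51 and 5.06 RPKM in hrde-1, against 38.6 and 26.8 RPKM in met-2 set-25;set-32. There met-2 set-25 had 11.3 and 10.9 RPKM and WT had 8.42 and 6.99 RPKM. At 5682 to 5691 kb of chromosome IV, 8 of 9 windows fell, with means of 4.10 and 1.43 RPKM in hrde-1, against 12.8 and 10.8 RPKM in met-2 set-25;set-32. met-2 set-25 had 12.3 and 10.9 RPKM and WT had 2.94 and 2.19 RPKM. At 2348 to 2355 kb of chromosome V, 7 windows fell, with 4.18 and 1.28 RPKM in hrde-1, against 12.4 and 12.7 RPKM in met-2 set-25;set-32, while met-2 set-25 had 10.3 and 6.97 RPKM and WT had 4.07 and 2.13 RPKM. H3K9me3 in that stretch was 4.79 to 5.48 RPKM in hrde-1, against 8.27 to 10.85 RPKM in met-2 set-25;set-32, 11.1 to 11.8 RPKM in met-2 set-25 and 4.45 to 4.99 RPKM in WT. Pol II and H3K9me3 were thus both higher there in the 2 strains with the met-2 and set-25 alleles, and the amount of DNA was not tested.

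Only hrde-1 and met-2 set-25;set-32 were searched for empty windows, and 6 windows had next to no reads of either mark in all libraries of one of them. At 13239 to 13243 kb of chromosome II, the region with the largest fall, 4 windows averaged 0.00 (gfp RNAi) and 0.01 (oma-1 RNAi) RPKM of Pol II in hrde-1, against 3.94 and 4.58 RPKM in met-2 set-25;set-32, and H3K9me3 was at most 0.10 RPKM in the 3 hrde-1 libraries, against 12.40 to 14.97 RPKM in met-2 set-25;set-32. Whether the DNA is present there was not tested. The next windows, 13244 to 13250 kb, are 1 of the 15 regions with the largest rise, with 48.1 and 62.2 RPKM in hrde-1, against 11.1 and 11.3 RPKM in met-2 set-25;set-32 and 5.25 and 4.37 RPKM in WT. One window of chromosome V at 1646 kb was likewise empty in hrde-1 and 1 window of chromosome III at 13288 kb in met-2 set-25;set-32. Without the 6 windows, 1285 were higher and 2329 lower.

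Chromosome X held 478 lower windows (2.71% of its 17612) and 23 higher ones (0.131%), against 2.26% and 1.54% of autosomal windows. The summed Pol II on X, relative to that on the autosomes, was 0.127 (gfp RNAi) and 0.0979 (oma-1 RNAi) in hrde-1, against 0.144 and 0.131 in met-2 set-25;set-32. Both hrde-1 ratios were the lower, with an exact permutation p = 0.33 (two-sided), the smallest that 2 against 2 libraries allow. WT had 0.130 and 0.102, between the 2 mutants on both foods. The ratios were 0.108 and 0.107 in set-32 and 0.150 and 0.119 in met-2 set-25. On gfp RNAi, set-32 was thus below hrde-1. Genes on X are little transcribed in germ cells, and whether the make-up of the animals differed was not tested.

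The longest region of all was on X. At 180 to 209 kb, 28 of 29 windows fell, with means of 4.35 and 2.88 RPKM in hrde-1, against 14.1 and 14.4 RPKM in met-2 set-25;set-32. WT had 10.1 and 13.0 RPKM, set-32 had 13.95 and 13.49 RPKM and met-2 set-25 had 7.51 and 8.07 RPKM, so hrde-1 was the lowest of 5 strains. H3K9me3 there was 11.6 to 13.1 RPKM in hrde-1, against 4.24 to 5.24 RPKM in met-2 set-25;set-32 and 7.86 to 8.84 RPKM in WT, the reverse order. The stretch carries no GRTS or GRH mark. The difference was smaller against met-2 set-25, with a mean log2 difference of −0.98 in place of −1.78.

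The oma-1 gene was the target of silencing started from outside. Its double-stranded RNA trigger matches chromosome IV from 8889833 to 8890353 (ce6), and was built with single mismatches so that its reads can be told from those of the gene. The first 180 bases of the trigger, with the 6 mismatched bases in capitals, are printed because this RNA is what was fed to both strains on oma-1 RNAi.
oma-1 trigger: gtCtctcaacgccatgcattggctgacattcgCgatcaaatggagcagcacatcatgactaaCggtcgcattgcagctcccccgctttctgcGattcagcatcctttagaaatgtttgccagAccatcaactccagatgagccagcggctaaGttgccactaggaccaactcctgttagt
In RefSeq's gene order, oma-1, which encodes a CCCH zinc finger protein of oocytes, stands between C09G9.5 and spr-2 on chromosome IV.

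Over the 2 windows of the oma-1 trigger (8889 to 8891 kb), mean Pol II was 42.8 (gfp RNAi) and 67.8 (oma-1 RNAi) RPKM in hrde-1, against 27.1 and 28.7 RPKM in met-2 set-25;set-32. WT had 41.0 and 45.2 RPKM. The paper reports no change of overall Pol II at oma-1 on oma-1 RNAi in WT, set-32 or the triple mutant, and a modest fall in met-2 set-25. It reports instead a shifted profile, with less Pol II at the 3′ end of the gene, and silencing of the pre-mRNA. The window means given here therefore do not measure that silencing. The ratio of hrde-1 to the triple mutant was 1.58 on gfp RNAi (1.34 to 1.86) and 2.37 on oma-1 RNAi (2.07 to 2.71). The ratio on oma-1 RNAi was 1.50 times that on gfp RNAi, with a counting interval of 1.22 to 1.84, and with 1 library per strain and food the difference has no replicate check. The first of the 2 windows passed the test, with a log2 difference of 1.23 ± 0.24 (SE, limma adjusted p = 0.0025), and the second had 0.72 ± 0.27 (adjusted p = 0.13). The call at the first was lost without the hrde-1 oma-1 RNAi library (0.86) and without either met-2 set-25;set-32 library (1.19 and 1.28). At the next window to the left (8888 kb) the values were 16.1 and 17.8 RPKM in hrde-1, against 9.27 and 5.46 RPKM in met-2 set-25;set-32 (log2 difference 1.14 ± 0.30, adjusted p = 0.026), a call lost in 5 of 16 alternatives. At the next window to the right (8891 kb) they were 50.1 and 65.0 RPKM in hrde-1, against 37.7 and 23.7 RPKM in met-2 set-25;set-32, with a log2 difference of 0.91 ± 0.24 that was under 2-fold. H3K9me3 over the 2 windows on oma-1 RNAi was 7.22 RPKM in hrde-1, against 10.48 RPKM in met-2 set-25;set-32 and 26.4 RPKM in WT.

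The change with food at oma-1 was also seen at genes that were not targeted. Within hrde-1, Pol II on oma-1 RNAi was 1.59 times that on gfp RNAi at oma-1, 1.80 times at cdc-42, which encodes a small GTPase, and 1.70 times at tba-1, which encodes an alpha-tubulin. Within met-2 set-25;set-32 the same ratios were 1.06, 1.38 and 1.40. Among 4079 windows that averaged 30 to 60 RPKM over the Pol II libraries, the ratio at oma-1 stood at the 78.1th percentile in hrde-1 and at the 29.7th in met-2 set-25;set-32, and the medians were 1.23 and 1.16. At met-2 set-25 it was 0.53, below all but 0.221% of those windows.

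**Figure D5:**
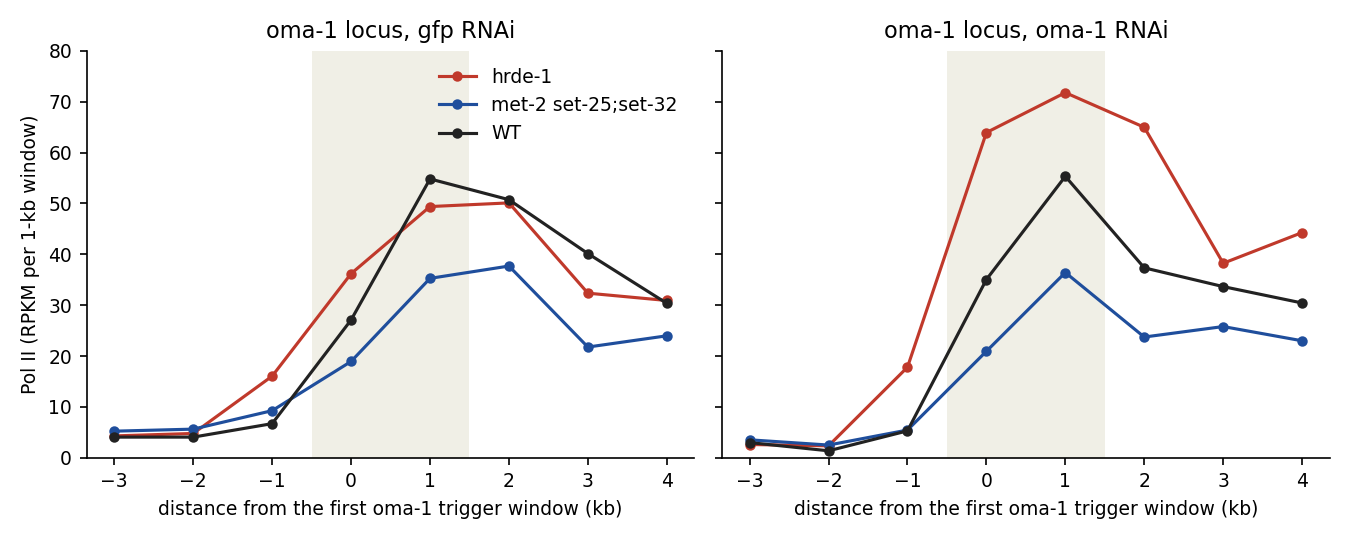
Pol II RPKM in 1-kb windows around oma-1, against distance in kb from the first window of the trigger (shaded, 2 windows), on gfp RNAi (left) and oma-1 RNAi (right), for hrde-1 (red), met-2 set-25;set-32 (blue) and WT (black), 1 library per line. On oma-1 RNAi hrde-1 lies above both others over the trigger (67.8, against 28.7 RPKM in the triple mutant and 45.2 in WT). On gfp RNAi the trigger means of hrde-1 and WT are close (42.8 and 41.0 RPKM), but single windows differ in both directions. At 8888 kb hrde-1 has 16.1 RPKM, against 6.72 in WT, and at 8890 kb it has 49.4 RPKM, against 54.8 in WT.

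Reference loci showed smaller differences. cdc-42 (7616 to 7619 kb of chromosome II) averaged 31.3 and 56.2 RPKM in hrde-1, against 24.3 and 33.7 RPKM in met-2 set-25;set-32, and none of its 3 windows was called. The tba-1 window (9786 kb of chromosome I) had 40.5 and 68.9 RPKM in hrde-1, against 32.04 and 44.82 RPKM in met-2 set-25;set-32, and was not called either. The control region of the study's ChIP-qPCR (6708 to 6710 kb of chromosome II) had 3.48 and 2.76 RPKM in hrde-1, against 3.53 and 2.88 RPKM in met-2 set-25;set-32. At set-32 itself, the window at 9519 kb of chromosome I had 11.5 and 20.7 RPKM in hrde-1, against 5.24 and 3.83 RPKM in met-2 set-25;set-32 and 1.56 and 3.02 RPKM in set-32, so it was low in both strains labelled set-32(ok1457). WT had 8.35 and 10.4 RPKM there.

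Most calls at GRTS windows were also made with another partner strain, but the same hrde-1 libraries serve in each comparison. The GRTS list was also drawn up with hrde-1 mutants, so the overlap of calls is not independent evidence. Against met-2 set-25, whose libraries share the name prefix of hrde-1, 147 GRTS windows were higher in hrde-1, 134 of them among the 136, with a median log2 difference of 1.99. Taking each mutant as its difference from the strain with the same prefix, WT for hrde-1 and set-32 for the triple mutant, 109 GRTS windows were higher, 104 of them among the 136. That contrast cancels whatever set-32 and the triple mutant, both labelled set-32(ok1457), have in common. Of the 1286 windows called higher in all, 337 were called against met-2 set-25 and 428 by prefix, and of the 2334 called lower, 211 and 354. Leaving out 1 of the 4 libraries at a time left 99 to 136 GRTS windows higher, while the count over all windows ran from 432 to 2755 higher and from 335 to 6421 lower, the highest of both without the hrde-1 gfp RNAi library. The counts over all windows were 548 higher and 604 lower without the hrde-1 oma-1 RNAi library, 432 and 497 without the met-2 set-25;set-32 gfp RNAi library, and 593 and 335 without its oma-1 RNAi library.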

How the data were processed

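Pol II and H3K9me3 ChIP-seq values of 25 libraries were read from 1 table of 1-kb windows; 5 input samples were not analysed here. The deposited RPKM values were made by the authors from reads aligned to ce6 (WS190) with Bowtie 0.12.7 (submitters' processing notes), keeping perfect alignments, sharing multiply aligned reads among their sites and scaling to depth only, with no input correction. Copies of a repeat therefore share one value. Library columns were tied to samples through the study's library list. Columns with the authors' own H3K9me3 comparisons (7 yes/no marks) were not used.

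Windows marked misannotated and those averaging under 3 RPKM over the ChIP libraries were left out. Differences came from limma 3.58.1 (trend) in R 4.3.3 on log2(RPKM + 1), all 10 Pol II libraries, with strain and food as terms (4 residual degrees of freedom); this scale understates folds of low windows. The fit was tested on simulated data. Aligned reads were inferred from the step a single read makes in the values; 81.0% to 82.0% of Pol II values were whole multiples, too few for a count test. H3K9me3(+) is the top 5% of WT OP50 values. Alternatives covered scaling, pseudocount, filter, fold, libraries and partner strain.

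Named items were: loci placed by the paper (oma-1 with 3 windows to each side, cer8, the GRH locus, cdc-42, tba-1, the ChIP-qPCR control, set-32); the 15 regions with the largest rise and 10 with the largest fall (at least 3 called windows, same way on both foods); the 10 GRTS and 5 GRH-only windows with the largest difference; and the longest region per chromosome. The members and lists were chosen with earlier results of these data known.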

Additional observations from a re-analysis of the deposited data

Results flagged for a closer look

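One of the windows named above moved in opposite directions on the 2 foods. The GRTS window at 16102 to 16103 kb of chromosome V had 20.9 RPKM in hrde-1, against 18.3 RPKM in met-2 set-25;set-32, on gfp RNAi, a log2 difference of 0.18, and 8.91 RPKM in hrde-1, against 26.4 RPKM in met-2 set-25;set-32, on oma-1 RNAi, a log2 difference of −1.47. The ratio was 1.14 (95% counting interval 0.838 to 1.54) on gfp RNAi and 0.338 (0.227 to 0.489) on oma-1 RNAi. With 1 library per strain and food, the difference between the foods was not tested.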

How the results depend on the processing

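The median GRTS difference from the all-window median (1.81) kept its sign in every alternative and moved beyond the spread between foods only against met-2 set-25 (2.18). Scaling the libraries to equal medians gave 4113 windows higher and 892 lower, with 73 GRH-only, 215 higher and 68 lower H3K9me3(+), and 225 lower X windows. Food pairs the libraries of the strains and is the replicate block of the fit; without that term 1155 were higher and 1283 lower (112 H3K9me3(+), 301 on X). By library name prefix 774 were higher and 930 lower, with 54 H3K9me3(+) and 257 X windows lower. The X median was −0.11 from all windows, and the set-32 window at 9519 kb of chromosome I turned to −0.10. In that contrast the set-32 strain is subtracted from the triple mutant, so a level that both share at set-32 cancels by design. Against met-2 set-25 585 were higher and 373 lower; GRH-only windows had 88 higher and a median of 1.15, H3K9me3(+) windows 164 higher and 30 lower, and X 53 lower. Quantile normalization gave medians of 0.33 (GRH-only) and 0.017 (X) from all windows. A fold of 1.5 gave 2226 higher. Without 1 library in turn the ranges were 432 to 2755 higher and 335 to 6421 lower, 21 to 58 GRH-only higher, 40 to 119 H3K9me3(+) higher and 30 to 525 lower, and 117 to 1136 lower on X. Where a cause is not named above, the cause was not tested. Removing the 6 windows empty in hrde-1 or in met-2 set-25;set-32, an alternative chosen after seeing the data, gave 1285 and 2329. Division by input and a count test in edgeR were not run. With 1 library per strain and food, differences between foods have no replicate check, and the lone library of a strain in the reduced fits is assumed to vary like the others. Windows near the median held 13.0 to 35.3 reads.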
